A study of Mus musculus with 2 samples.

Results

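Mir335, Mir298, Mir296, Mir483 and Mir675 are the 5 miRNA genes, of 2202 annotated in all, that were chosen here by name because they lie in imprinted domains other than Dlk1-Dio3. Mir335 belongs to Mest, Mir296 and Mir298 to the Gnas domain, Mir483 to Igf2 and Mir675 to H19. They were measured by microRNA-seq of RNA shorter than 30 nucleotides from left cerebral cortex. The mice were 18 to 20 months old and of strain B6CASTF1/J, which crosses C57BL/6J with CAST/EiJ. There is 1 group, with 2 biological replicates and 1 technical replicate of each, and the labels name the sex as female in some fields and male in another and record no treatment. Since 1 donor identifier covers both libraries, with a biosample identifier for each, their spread may be technical, and no comparison between conditions exists. The levels below describe 1 tissue in 2 libraries.

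At an imprinted gene the copy from one parent is active and the copy from the other is silent. At many such genes this state is set by DNA methylation laid down in the germ line. A miRNA hairpin inside such a gene, or inside its domain, can be made from the same parental copy as its host. The hairpin is cut into a 5p and a 3p arm, and the mature arm finds its targets mainly through its seed, bases 2 to 8. Mest encodes a protein of the hydrolase fold and Igf2 a fetal growth factor, both active on the paternal copy in many tissues, though not in all. H19 is a maternal non-coding RNA next to Igf2 that is abundant in the embryo and low in most adult tissues. The Gnas domain holds paternal, maternal and biallelic transcripts, and Mir296 and Mir298 are known as paternal. Counts here were not split by parental copy, so imprinting itself was not measured.

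The mature sequences are shown because the counts below rest on reads placed at them, and because their seeds set the 5 genes apart from each other. All 5 genes matched RefSeq (build GRCm38.p6), which lists 2 arms for each. Seeds are in capitals, and sequences run 5′ to 3′.
miR-335-5p: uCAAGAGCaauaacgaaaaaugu
miR-335-3p: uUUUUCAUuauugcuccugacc
miR-298-5p: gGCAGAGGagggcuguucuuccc
miR-298-3p: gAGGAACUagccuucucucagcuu
miR-296-5p: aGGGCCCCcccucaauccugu
miR-296-3p: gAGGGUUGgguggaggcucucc
miR-483-5p: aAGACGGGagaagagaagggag
miR-483-3p: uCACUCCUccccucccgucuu
miR-675-5p: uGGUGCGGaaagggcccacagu
miR-675-3p: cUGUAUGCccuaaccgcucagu
The 10 arms carry 10 different seeds, and none of these is the seed of another gene among the 1738 mature entries of the RefSeq table. Among all those entries, 32.0% share their seed with another gene. None of the 5 hairpins shares a stretch of 20 nucleotides with another annotated miRNA gene. No arm occurs whole in a transcript of another gene in GENCODE M21, except that both arms of miR-675 lie within H19 itself. Copies outside annotated transcripts were not searched for. The counts are per gene, so the arms cannot be told apart.

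Mir335 (ENSMUSG00000065501.1) lies on the plus strand of chromosome 6 at 30741299 to 30741396 (mm10), within an intron of Mest, the second intron of the first listed transcript (Mest-201). Mir298 (ENSMUSG00000065410.1) and Mir296 (ENSMUSG00000065521.1) lie on the minus strand of chromosome 2, at 174267504 to 174267585 and 174267047 to 174267125, with 378 nucleotides between them. Neither lies within an annotated gene on its strand. The nearer end of Nespas, the antisense transcript of the Gnas domain, is 13652 nucleotides from Mir298 and 14112 from Mir296. Mir483 (ENSMUSG00000070140.1) lies on the minus strand of chromosome 7 at 142654924 to 142654996, in an intron of Igf2 and of the overlapping gene Gm49394. Mir675 (ENSMUSG00000076275.1) lies 77776 nucleotides away on the same strand, at 142577064 to 142577147, in an exon of H19.

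The libraries held 5166667 sense counts of miRNA genes in replicate 1 and 4459993 in replicate 2. Levels are given as CPM, the count per 1000000 of these sense counts, and genes that reached 2 CPM in each library were called expressed. Neuronal RNA was looked for with 8 neuronal markers, whose sum came to 36750 and 32334 CPM. None of them marks a region of the brain, so cortical identity was not tested. Mir128-1, Mir137 and Mir138-1 were the highest in each library. The 3 copies of Mir124a had 1 to 21 counts per library, but they have a run of 20 nucleotides in common, and reads that fit several places were not counted to genes. Of the 8 markers, 7 share such a stretch, so their levels are uncertain. Together, the members took 0.371% and 0.789% of the sense counts of replicates 1 and 2.

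Of the 5 genes, 4 were expressed, against 18.6% of all annotated miRNA genes. Their levels spanned from among the higher counted miRNA genes to about the median of the expressed genes. Reads that fit several places were not counted to genes, so genes with near-identical copies may stand too low here. Ranks and multiples of the median therefore hold for counted reads alone. The order was Mir335, Mir298, Mir296, Mir483 in each library, with Mir675 at 0. Mir335 carried 78.3% of the members' counts in replicate 1 and 93.3% in replicate 2. Values are mean ± SD (n = 2) unless a library is named, and intervals are exact 95% Poisson intervals that cover counting error only. Fewer cells of a type and less RNA per cell cannot be told apart in tissue RNA.

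Mir335, a miRNA studied as a suppressor of tumour spread, had 15020 counts in replicate 1 and 32833 in replicate 2. This is 2907 CPM (2861 to 2954) in replicate 1 and 7362 CPM (7282 to 7442) in replicate 2, a mean of 5134 ± 3150 CPM. Replicate 2 was the high library, and the intervals lie far apart. At rank 55 in replicate 1 and 30 in replicate 2, its mean stood at 57.7 times the median expressed gene (88.9 CPM).

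The Gnas domain pair was lower. Mir298, reported to act on the amyloid precursor protein pathway, had 2382 and 1631 counts, or 461.0 CPM (442.7 to 479.9) in replicate 1 and 365.7 CPM (348.2 to 383.9) in replicate 2. Its mean of 413.4 ± 67.4 CPM had the smallest relative spread of the 4 expressed members, a coefficient of variation of 16.3% against a median of 27.4% over all 409 expressed genes. Mir296, known for a role in endothelial cells, had 1184 and 559 counts, or 229.2 CPM (216.3 to 242.6) and 125.3 CPM (115.2 to 136.2), a mean of 177.2 ± 73.4 CPM. Both members of the pair were higher in replicate 1, and Mir298 was above Mir296 in each library.

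At the Igf2 and H19 loci the neighbours differed. Mir483, the Igf2 miRNA, had 596 counts in replicate 1 and 183 in replicate 2, or 115.4 CPM (106.3 to 125.0) and 41.0 CPM (35.3 to 47.4). Its mean of 78.2 ± 52.6 CPM lay at rank 210, near the middle of the expressed genes, and replicate 1 was the high library. Mir675, the miRNA of H19 that restrains placental growth, had 0 sense counts in both libraries. Taking 3 counts as the limit, levels of up to 0.581 and 0.673 CPM are possible in replicates 1 and 2. The upper end of the two-sided Poisson interval used for the other members is 0.714 and 0.827 CPM. The value is shared with 65.0% of annotated miRNA genes, which also had no sense count in either library. In these libraries Mir675 was not detectable at this depth.

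**Figure D1:**
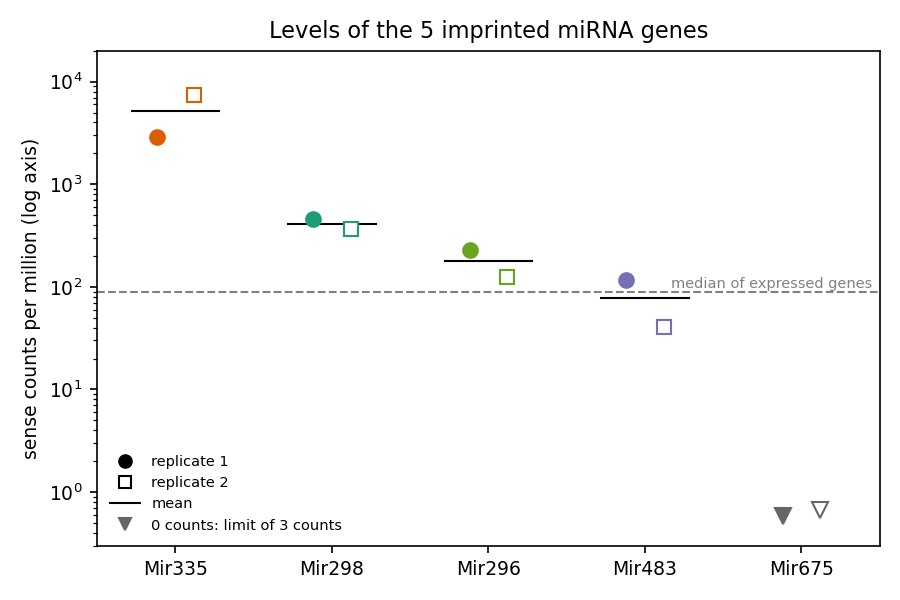
Level of each gene in CPM of sense counts (log axis) for replicate 1 (filled circles) and replicate 2 (open squares), with exact 95% Poisson intervals, mostly smaller than the symbols, and the mean as a line. Mir335 lies highest at 2907 and 7362 CPM, Mir675 is drawn as triangles at its limits of 0.581 and 0.673 CPM, and the dashed line is the median expressed gene.

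**Figure D2:**
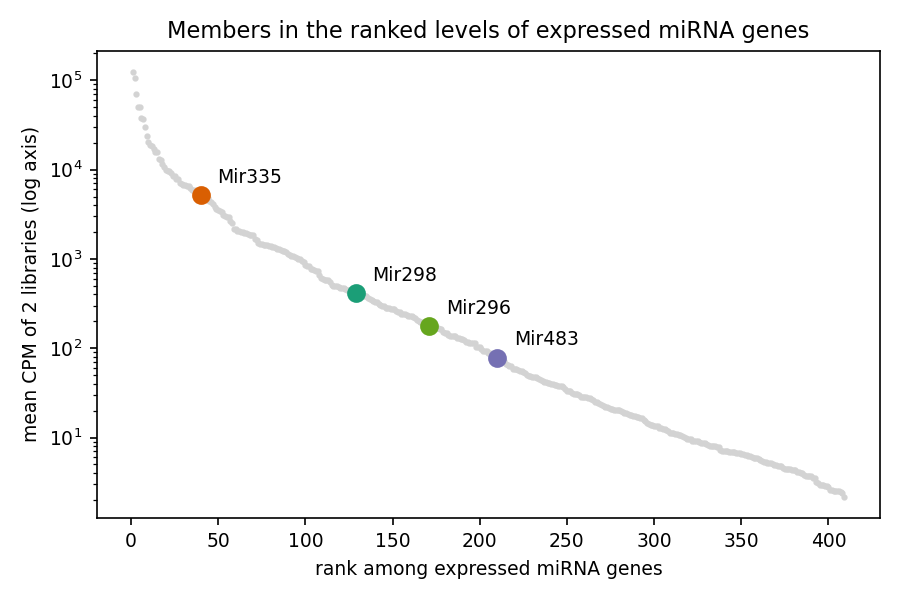
Mean CPM of the 2 libraries (log axis) against rank for the 409 expressed miRNA genes (grey), with the 4 expressed members in colour. Mir335 stands at rank 40, Mir298 at 129, Mir296 at 171 and Mir483 at 210.

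Neighbours in this order were compared with their spread. The ranges of the libraries did not overlap between any neighbours. Mir296 and Mir483 differed by 99.1 CPM, less than their SDs of 73.4 and 52.6 CPM added together. Both were lower in replicate 2, so these SDs hold a shared shift, and the ratios below compare the genes within each library. The other neighbours lay further apart than their SDs added together. Within a library, Mir335 had 6.31 times the counts of Mir298 in replicate 1 (95% exact binomial interval 6.04 to 6.59) and 20.1 times in replicate 2 (19.2 to 21.2). Mir298 had 2.01 times the counts of Mir296 in replicate 1 (1.88 to 2.16) and 2.92 times in replicate 2 (2.65 to 3.22). Mir296 had 1.99 times the counts of Mir483 in replicate 1 (1.80 to 2.20) and 3.05 times in replicate 2 (2.58 to 3.63). Every one of these 3 ratios was thus larger in replicate 2, by more than counting error.

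The 2 libraries were then compared gene by gene with a two-sided exact binomial test on TMM-scaled totals, with Benjamini-Hochberg adjustment over all 438 genes whose counts in both libraries summed to at least 20. The test compares these libraries, not conditions, and knows counting noise alone. It called 67.1% of the genes tested, so a call is the usual outcome here. All 4 members that reached the count minimum were called, and Mir675 did not reach it. By direction, 1 member was higher in replicate 2, against 32.6% of genes tested, and 3 were higher in replicate 1, against 34.5%.

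Mir335 was 2.77-fold higher in replicate 2, a log2 ratio of replicate 2 to replicate 1 of 1.47 (95% exact interval 1.44 to 1.50). Only 13 of the 409 expressed genes had a higher ratio. Mir483 was 2.56-fold higher in replicate 1 (log2 ratio -1.36, interval -1.61 to -1.12, adjusted p = 2.24e-32 by the exact binomial test), and 38 expressed genes had a lower ratio. These 2 members exceeded 2-fold, as did 24.2% of expressed genes. Of all 409 expressed genes, 8.07% were over 2-fold higher in replicate 2 and 16.1% over 2-fold higher in replicate 1. Mir296 was 1.67-fold higher in replicate 1 (log2 ratio -0.74, interval -0.89 to -0.59, adjusted p = 3.47e-24 by the exact test). Mir298 was 1.15-fold higher in replicate 1 (log2 ratio -0.20, interval -0.30 to -0.11, adjusted p = 1.98e-05 by the exact test), within the median absolute log2 ratio of 0.54 over expressed genes.

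**Figure D3:**
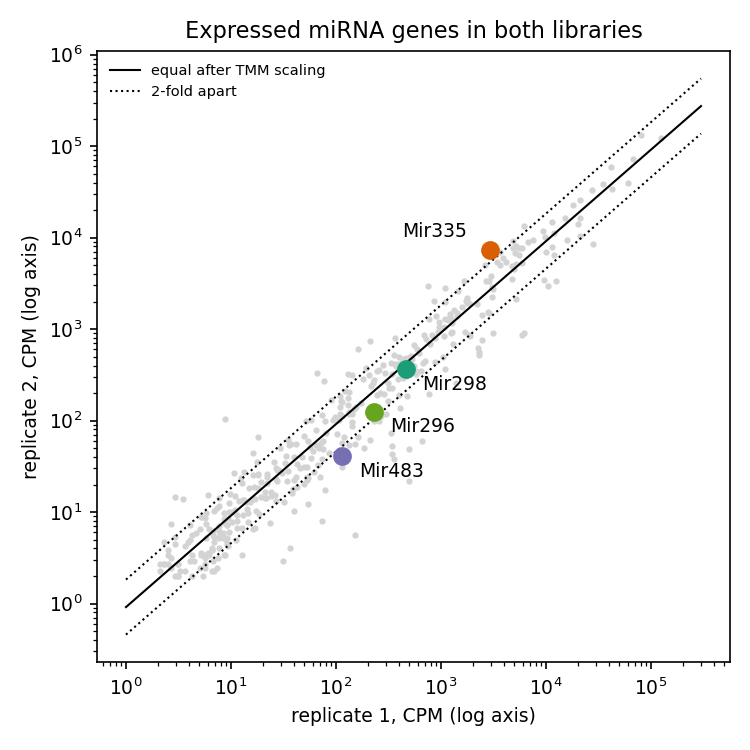
CPM in replicate 2 against replicate 1 (log axes) for the 409 expressed miRNA genes (grey) and the 4 expressed members (colour). The solid line marks equal levels after TMM scaling and the dotted lines 2-fold apart: Mir335 lies above the upper line, Mir483 below the lower, and Mir298 and Mir296 between them.

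Over all expressed genes, base composition went weakly with the ratio between the libraries. The members did not follow it in order, since Mir296 has more GC than Mir483 but the less negative ratio. The Mir335 hairpin has the least GC of the 5, and it is printed beside that of Mir483 because these 2 genes differed most between the libraries, in opposite directions. Capitals mark the mature arms.
Mir335 hairpin: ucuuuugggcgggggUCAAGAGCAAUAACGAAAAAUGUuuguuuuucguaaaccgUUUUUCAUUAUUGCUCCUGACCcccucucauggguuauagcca
Mir483 hairpin: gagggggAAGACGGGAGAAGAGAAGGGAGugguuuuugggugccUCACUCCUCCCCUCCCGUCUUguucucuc
GC was 42.9% in the Mir335 hairpin, 53.7% in Mir298, 58.9% in Mir483, 63.1% in Mir675 and 63.3% in Mir296. Over the 409 expressed genes, which share the same 2 libraries and their depths, the log2 ratio fell with hairpin GC (Spearman's rho -0.30, Pearson's r -0.26, given as a description). The 136 genes of lowest GC, up to 47.4%, had a median log2 ratio of 0.29. The 137 of highest GC, from 55.7%, had a median of -0.36.

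Each member was therefore set beside the 40 expressed genes nearest to it in GC, a comparison chosen after the data were seen. Mir335 was 1.11 above their median on the log2 scale, and 38 of the 40 had a lower ratio. Mir483 was 1.14 below their median (difference -1.14), and 1 of the 40 had a lower ratio. For Mir296 the difference shrank to -0.17, with 15 of the 40 below it, and for Mir298 it was -0.19, with 18 below. Single genes of like GC reached ratios beyond those of Mir335 and Mir483. The part of base composition in the members' ratios was not tested further.

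**Figure D4:**
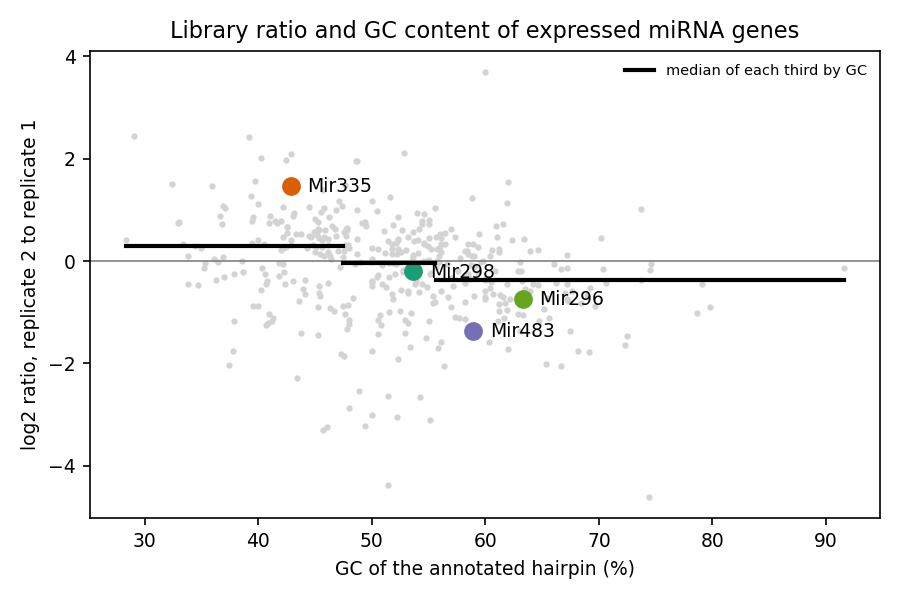
Log2 ratio of replicate 2 to replicate 1 against GC content of the annotated hairpin for the 409 expressed miRNA genes (grey) and the 4 expressed members (colour), with black lines at the median of the genes of low, middle and high GC (0.29, -0.03 and -0.36). Mir335 stands high among genes of low GC, and Mir483 stands low among genes of 57.1% to 60.6% GC.

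Markers of cell types moved to unlike extents between the libraries, where 24.2% of all expressed genes differed by over 2-fold. As sums, the log2 ratio was 1.09 for mural, 0.75 for choroid plexus and ciliated epithelium, and -2.04 for meninges and fibroblast markers. It was 0.27 for liver, 0.10 for oligodendrocyte, -0.05 for neuron and -0.13 for pancreas and endocrine markers. Within the neuron list, Mir128-1 had a log2 ratio of -0.40 and Mir137 one of 0.76, so that sum hides opposite shifts. The 3 mural cell markers summed to 5077 and 9897 CPM in replicates 1 and 2, with Mir143 at a log2 ratio of 1.04 and Mir145a at 1.95. Of the 4 meninges and fibroblast markers, Mir214 had 404 and 77 counts, and Mir199a-1, Mir199a-2 and Mir199b were at 0 in both libraries. These last 3 share a stretch of 20 nucleotides with each other, so that their reads may have been set apart as having several places, and their 0 says nothing of those cells. The 7 markers of choroid plexus and ciliated epithelium summed to 726.0 and 1113 CPM. Within that list Mir34c had 842 and 2695 counts, Mir204 had 2752 and 2083, and Mir449b was at 0. The 4 oligodendrocyte markers summed to 3952 and 3864 CPM, with Mir219b at 0. Mir219b matches Mir219c over 20 nucleotides in a row, and Mir219a-1 matches Mir219a-2 in the same way. The Mir219b 0, the Mir219a levels and the sum of this list are therefore uncertain. Within that list Mir219a-2, with 11391 and 8288 counts, had a log2 ratio of -0.12 and Mir338 one of 0.33. Mir219a-1, with only 34 and 6 counts, had one of -2.07. The 4 pancreas and endocrine markers summed to 311.6 and 260.1 CPM, with Mir216b at 0, and the liver marker Mir122 stood at 54.6 and 60.1 CPM. The part of these markers in the members' ratios was not tested.

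The annotated miRNA genes around each member were few. Within 500 kb of Mir335 lie Mir29a (18699 ± 3113 CPM) and Mir29b-1 (58.9 ± 7.55 CPM), on the opposite strand, 321263 and 321626 nucleotides away. Their log2 ratios were -0.21 and -0.13, against 1.47 for Mir335. Near Mir296 and Mir298 the only other annotated miRNA gene in that window was Gm27591, on the opposite strand, with 0 counts in both libraries. Mir483 and Mir675 had each other alone in the window, the former at 596 and 183 counts and the latter at 0. The Mir296 and Mir298 pair can be set beside all 105 pairs of expressed miRNA genes that are next to each other on a strand within 10000 nucleotides, of which 48 are on chromosome 12. Their log2 ratios differed by 0.54, less than the median of 0.75 over these pairs, and 39 pairs differed less. In that sense the pair moved between the libraries no more unequally than neighbours usually did.

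The miRNA genes nearest to each member in level, by distance of log2(CPM + 1) over the 2 libraries, were named by a fixed rule. For Mir335 they were Mir221 (3628 and 6951 CPM, distance 0.33) and Mir361 (3421 and 5385 CPM, distance 0.51), both X-linked. For Mir298 they were Mir700 (507.3 and 383.6 CPM, distance 0.15) and Gm23450 (463.9 and 309.9 CPM, distance 0.24). For Mir296 they were Mir1306 (270.6 and 112.8 CPM, distance 0.28) and Mir299a (244.1 and 103.4 CPM, distance 0.29), of which Mir299a lies in the Dlk1-Dio3 domain. For Mir483 they were Mir210 (114.8 and 30.7 CPM, distance 0.41), the hypoxia-induced miRNA, and Mir3059 (85.5 and 44.6 CPM, distance 0.44). With 2 libraries this measures likeness of level and of 1 ratio.

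Other imprinted domains give the setting for these levels. Between Dlk1 and Dio3 on chromosome 12, 52 of 67 miRNA genes were expressed, with a median of 147.5 CPM over all 67. That domain took 13.2% and 11.4% of the sense counts, far more than the members. Its highest genes, Mir127 (49801 ± 14995 CPM) and Mir770 (8405 ± 1316 CPM), were above Mir335. On the means 6 of its genes were, but the count was 10 within replicate 1 and 5 within replicate 2. On the means Mir298 was below 26, Mir296 below 32 and Mir483 below 41 of its 52 expressed genes. Its expressed genes had a median log2 ratio of -0.04, the same as all expressed genes, with a range from -4.60 to 2.44 that holds all 4 members.

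Sfmbt2 is known as paternally expressed in some tissues and holds a multicopy miRNA cluster. Within it, 8 of 119 miRNA genes on its strand were expressed and 101 had no count. A run of 20 nucleotides recurs in a further miRNA gene for 116 of the 119, and reads that fit several places were not counted to genes. A 0 there does not show a silent gene, and the levels are uncertain. Its highest genes, Mir467d (361.6 ± 102.6 CPM) and Mir669c (241.4 ± 25.5 CPM), were below Mir298 in each library, and on the means above Mir296. Mir184, an imprinted miRNA beside Rasgrf1, had 132.2 and 124.4 CPM, a mean of 128.3 ± 5.48 CPM, between Mir296 and Mir483. Unlike the 4 expressed members it did not pass the exact binomial test between the libraries (log2 ratio 0.04, adjusted p = 0.657).

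**Figure D5:**
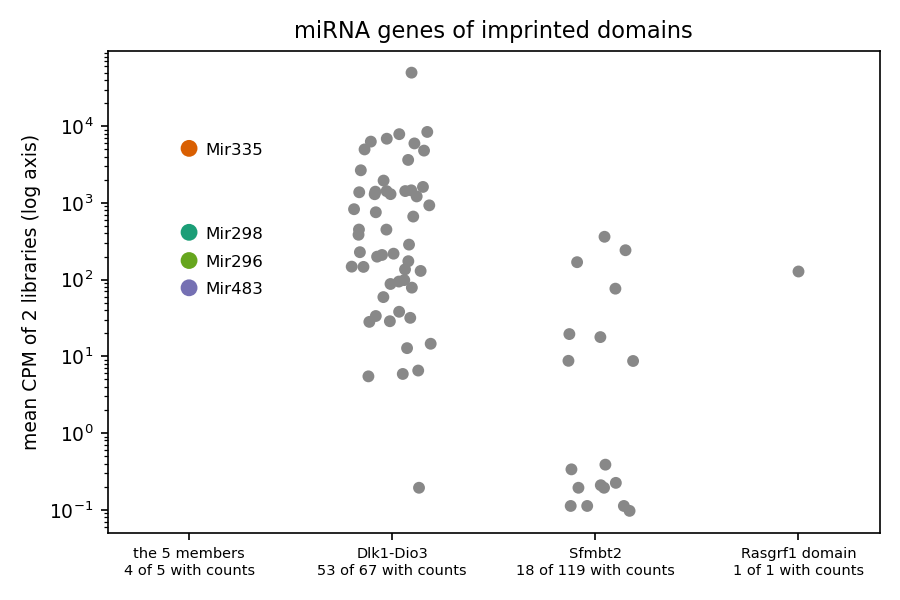
Mean CPM of the 2 libraries (log axis) for each miRNA gene with a count, by imprinted domain: the 5 members (4 with counts), Dlk1-Dio3 (53 of 67), Sfmbt2 (18 of 119) and Mir184 of the Rasgrf1 domain. Genes at 0 are not drawn. On these means Mir335 lies below 6 genes of Dlk1-Dio3 (10 in replicate 1 alone and 5 in replicate 2 alone) and above every gene of Sfmbt2.

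All counts of the members were on the sense strand. The antisense count was 0 at each of the 5 genes in both libraries, as at 95.9% of annotated miRNA genes, and the counts without regard to strand were identical to the sense counts.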

How the data were processed

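The authors deposited raw read counts per miRNA gene for each of the 2 libraries, in 3 columns (without strand and on each strand), with build mm10 and GENCODE M21, per the text deposited beside the tables. The aligner and the counter were not given in the sources here. Left out were the 4 lines for reads of no gene, which held 65.2% and 65.1% of reads in replicates 1 and 2. Reads with several places alone made up 41.8% and 46.4%. The stranded column with the larger total was taken as sense. Reads of the CAST/EiJ parent that differ from the reference may have been lost, which was not tested.

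CPM is the sense count divided by the sense total, per 1000000. Ratios add 0.5 to each count and use TMM totals (edgeR 4.0.16), with DESeq2 1.42.0 size factors as an alternative. A quasi-likelihood test had no groups to compare. Tests used scipy 1.17.1 at an adjusted p of 0.05. The library test was tried on simulated data with counting noise alone and equal scaling, so the trial does not cover wider spread between libraries. Hairpins were folded with RNAfold 2.7.2.

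The members and lists were chosen with earlier results of these data known. Genes named beside the members were the 2 nearest in level to each expressed member, the miRNA genes within 500 kb, the 2 highest of each other imprinted list, the cell type markers and any gene sharing a seed or a stretch of 20 nucleotides. Alternatives covered the denominator, scaling, count column, thresholds and each library alone.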

Additional observations from a re-analysis of the deposited data

How the results depend on the processing

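The levels depend on the denominator. Per 1000000 of all reads, Mir335 stood at 1790, Mir298 at 144.0, Mir296 at 61.7 and Mir483 at 27.2. With the 10 highest genes left out of the total, Mir335 stood at 11760, Mir298 at 913.5, Mir296 at 387.1 and Mir483 at 168.7 CPM. Under TMM totals and the column without strand, these levels moved by less than 1 SD. With 1 library left out, Mir335 ran from 2907 to 7362 CPM and Mir483 from 41.0 to 115.4 CPM. The median of the Dlk1-Dio3 list ran from 118.8 to 151.5 CPM with 1 library left out, and was 416.2 CPM over its expressed genes alone. For Sfmbt2 the median was 0, and 47.8 CPM over its expressed genes alone.

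The log2 ratios of Mir335, Mir298, Mir296 and Mir483 kept their direction and stayed past the threshold under raw totals, DESeq2 size factors, 5 added to each count and the column without strand. Subtracting the median of genes of like GC, which gives no p, left their direction and took Mir296 from -0.74 to -0.17. All 4 were expressed at 1, 5 and 10 CPM. A ratio cannot be formed with 1 library left out. No paired analysis was possible because the labels give 1 group. For Mir675, depth sets how low a level the 0 counts can bound.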

Other observations

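The predicted fold of the hairpins was set beside their levels. Per nucleotide, the minimum free energy from RNAfold was -0.67 kcal/mol for Mir675, -0.55 for Mir296, -0.52 for Mir298, -0.46 for Mir483 and -0.45 for Mir335. The median of the 1005 mouse hairpins in the RefSeq table was -0.41, so all 5 were predicted to fold more stably than the median hairpin. Mir675, with 0 counts, had the most stable predicted hairpin of the 5, and 2.19% of the RefSeq hairpins were more stable per nucleotide. Mir335, with the most counts, had the least stable of the 5. A relation of fold to level over the expressed genes was not tested.

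Both exonic and intronic positions occur among the members. Of the 281 annotated miRNA genes within an exon of any transcript on their strand, as Mir675 is, 28.1% were expressed. Those expressed had a median of 126.1 CPM. Of the 795 within an intron, as Mir335 and Mir483 are, 23.9% were expressed, with a median of 53.4 CPM. Of the 988 with no host on their strand, as Mir296 and Mir298 are, 10.5% were expressed, with a median of 196.1 CPM.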
